A study of Homo sapiens with 6 samples.

Results

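The 7 genes GPX4, AIFM2, ACSL4, LPCAT3, TFRC, NCOA4 and TRIT1, which promote or oppose ferroptosis, were examined in A375 cells, an established human melanoma line. They were chosen by name for these roles, by a rule that uses no measured value, though with earlier results of these data known. All 7 had a row among the 29790 genes of the deposited matrix. The cells in 3 libraries had been exposed to fluvastatin at 3 µM for 24 h, and the 3 control libraries came from untreated cells of the same line grown side by side in the same serum-containing medium. The labels name no vehicle for the controls. The data thus cover 1 line, 1 dose and 1 time, and the labels do not say whether each library had a dish of its own. The p-values below therefore reflect how much 3 libraries of a group vary, and part of that variation may be technical.

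Ferroptosis is a form of cell death that depends on iron and on the peroxidation of polyunsaturated fatty acids in membrane phospholipids. Cells oppose it with GPX4, a selenocysteine enzyme that reduces phospholipid hydroperoxides with glutathione, and with AIFM2 (also called FSP1), which reduces coenzyme Q so that it can trap lipid radicals. Fluvastatin is a statin, a class of drugs that block the mevalonate pathway, and that pathway supplies the side chain of coenzyme Q and the isopentenyl group that TRIT1 attaches to selenocysteine tRNA and other tRNAs. ACSL4 and LPCAT3 activate polyunsaturated fatty acids and insert them into phospholipids. TFRC imports iron, and NCOA4 carries ferritin to the lysosome to release its iron.

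The coding sequence of GPX4 is shown first because it is where the roles of TRIT1 and GPX4 meet. The capitals mark an in-frame TGA, a stop codon in most messages, which is annotated as selenocysteine at codon 73 of the transcript GPX4-201 and is read by the tRNA that TRIT1 modifies. The stretch lies on the plus strand of GRCh38 at chr19:1105373-1105435 and is read from the GENCODE release 29 transcript.
GPX4: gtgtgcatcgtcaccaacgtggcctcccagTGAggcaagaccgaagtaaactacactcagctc

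The messages of TFRC and of the ferritin chains carry iron-responsive elements, hairpins that iron regulatory proteins bind when iron is low. Bound in the 3′ UTR of TFRC they stabilise the message, and bound in the 5′ UTR of the ferritins they block translation. A search for a CAGTGN loop on a stem, with an unpaired C ahead of the stem, the 5 bases before the loop able to pair with the 5 after it and G-T pairs allowed, was run on the sense strand of the longest protein-coding transcript of 19669 genes. It found a match in the 5′ UTR of 0.112% of them and in the 3′ UTR of 0.61%. TFRC had 4 matches in its 3′ UTR, the most of any 3′ UTR searched, and FTH1 and FTL had 1 each in the 5′ UTR. The other 6 members had none in the transcript searched. The matches are on the minus strand of GRCh38 for TFRC, at chr3:196050979-196051007, chr3:196050575-196050603, chr3:196050510-196050538 and chr3:196050463-196050491, and for FTH1, at chr11:61967574-61967602, and on the plus strand for FTL, at chr19:48965335-48965363. Capitals mark the loop.
TFRC match 1: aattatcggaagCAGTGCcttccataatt
TFRC match 2: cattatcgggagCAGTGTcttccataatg
TFRC match 3: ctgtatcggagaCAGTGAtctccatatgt
TFRC match 4: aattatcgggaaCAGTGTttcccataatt
FTH1: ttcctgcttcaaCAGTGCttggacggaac
FTL: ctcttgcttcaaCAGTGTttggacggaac

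Values were read as FPKM, a unit in which fragments are divided by transcript length and by library depth, so that levels can be compared between genes. They hold no counts. Steps between low values gave relative depths of 1.27 to 1.51 in the fluvastatin libraries and of 0.966 to 1.18 in the controls, so every fluvastatin library was deeper than every control. Of 4 tested melanoma and melanocyte markers, SOX10 and CSPG4 rose, PRAME fell and MITF did not pass. SOX10 averaged 72.0 FPKM in fluvastatin libraries and 23.3 FPKM in controls, while PMEL, TYRP1, DCT and S100B averaged below 1 FPKM in both groups. MLANA and TYR had no row in the matrix. Of the other cell types, keratinocyte markers rose in 1 of 2 tested cases (KRT14), while KRT10 did not pass. Leukocyte markers rose in 2 of 2 (CD68 and LYZ), and the 1 tested fibroblast marker, COL1A1, fell. Summed levels of the keratinocyte markers were 70.1 to 71.3 FPKM in fluvastatin libraries and 38.4 to 64.0 FPKM in controls. Those of the leukocyte markers were 43.1 to 47.3 FPKM in fluvastatin libraries and 25.1 to 31.0 FPKM in controls. Those of the fibroblast markers were 5.24 to 7.54 FPKM in fluvastatin libraries and 9.54 to 12.9 FPKM in controls. The largest single value was 67.0 FPKM for keratinocytes, 45.0 FPKM for leukocytes and 11.8 FPKM for fibroblasts. In the library that held it, 1 gene thus made up most of the sum. KRT5, TP63, CDH1, CD14, DCN and LUM averaged below 1 FPKM in both groups, with CDH1 listed at 0 in every fluvastatin library and COL3A1 and TP63 at 0 in every control, and the part of these markers in the results was not tested.

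LPCAT3 and TRIT1 fell with fluvastatin, and the other 5 members did not pass the test. The test was limma on log2(FPKM + 1) over the 14344 genes that reached 1 FPKM in 3 or more libraries, at a Benjamini-Hochberg adjusted p below 0.05, and all 7 members met that filter. The 2 called members of 7 stand beside 27.7% of all tested genes called, of which 14.1% of tested genes rose and 13.6% fell, so the share of members called was near the background. In 4 members (GPX4, TRIT1, ACSL4 and LPCAT3) the fluvastatin and control libraries did not overlap, against 44.8% of all tested genes. The median log2 fold change of the 7 members was -0.00092, and that of all tested genes was -0.010. Without fluvastatin replicate 0 or 2 or control replicate 0, 1 member was called, and with relative depth as a covariate 0 members and 61 of all genes were, so depth and treatment could not be separated. In RNA from whole dishes, a lower level per cell and fewer cells with that level cannot be told apart.

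**Figure D1:**
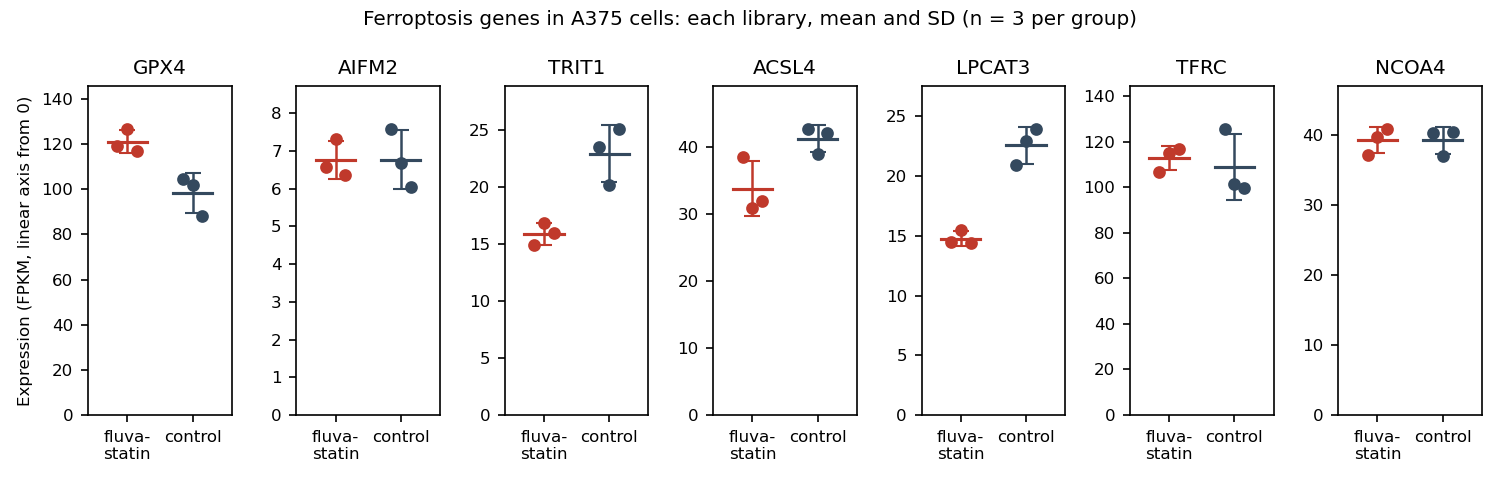
Expression of the 7 members in FPKM on linear axes from 0, with 1 point for each library, a horizontal bar at the group mean and an error bar of 1 SD (n = 3 per group), fluvastatin at left and control at right. The fluvastatin points of TRIT1, LPCAT3 and ACSL4 lie below all their control points, those of GPX4 lie above, and those of AIFM2, TFRC and NCOA4 overlap the controls.

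Of the lipid-remodelling members LPCAT3 fell, with the largest change of the 7, and ACSL4 did not pass. LPCAT3, the acyltransferase that inserts arachidonate and other polyunsaturated chains into lysophospholipids, was at 14.5, 15.5 and 14.4 FPKM in fluvastatin replicates 0, 1 and 2, against 20.9, 22.9 and 23.9 FPKM in the control replicates. All 3 treated values lay within a narrow band well below the lowest control. Its mean was 14.8 ± 0.598 FPKM in fluvastatin libraries and 22.6 ± 1.55 FPKM in controls (SD, n = 3 each), 1.53-fold lower, with a log2 fold change of -0.58 ± 0.090 (SE; limma adjusted p = 0.00575). The call held with each library left out in turn (adjusted p = 0.0123 to 0.0277) and was lost with relative depth as a covariate, at a log2 fold change of -0.64 (0.180). Of all tested genes, 6.87% had a lower log2 fold change.

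LPCAT3 (ENSG00000111684.10, chromosome 12, 6976186 to 7018510, minus strand of GRCh38) is overlapped by EMG1, a ribosome biogenesis gene on the opposite strand. Annotated exons of EMG1 cover 3100 of the 4725 exon bases of LPCAT3, which is 65.6%. EMG1 was at 43.4, 51.4 and 43.5 FPKM in fluvastatin replicates 0, 1 and 2, against 96.1, 80.1 and 79.2 FPKM in the control replicates, 1.85-fold lower (limma adjusted p = 0.00375). Both genes of the pair therefore fell, and since no strand setting is given for the counting, their reads cannot be told apart where they overlap.

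The promoter of LPCAT3 is printed because, of the 2 members that fell, it is the one with an entry in the RefSeq promoter table (TRIT1 has none), which holds 250 bases before and 50 after each annotated start. The region is on the minus strand at chr12:7018427-7018726 of GRCh38.p14, and the capitals mark CCAAT, read on both strands. It held 3 matches to CCAAT, found in 34.6% of 35116 promoters, and 5 to GGGCGG, found in 45% of them. It held no match to the DR4 repeat, found in 0.0199%, to TGACNNNGC, found in 13.3%, or to CACGTG, found in 7.26%, with both strands searched. GPX4, whose libraries lay higher with the drug, also had 3 matches to CCAAT in the first of its 3 promoter entries. Of the members with an entry, AIFM2, ACSL4, TFRC and NCOA4 had none in theirs, taking the first entry of NCOA4.
LPCAT3 promoter: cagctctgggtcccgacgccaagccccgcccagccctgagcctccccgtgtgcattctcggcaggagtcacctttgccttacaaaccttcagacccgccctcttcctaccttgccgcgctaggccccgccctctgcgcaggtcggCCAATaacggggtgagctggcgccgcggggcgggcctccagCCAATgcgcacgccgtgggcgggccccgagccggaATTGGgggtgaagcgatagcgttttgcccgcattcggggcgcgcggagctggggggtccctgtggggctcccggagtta

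ACSL4, which couples arachidonic and adrenic acid to coenzyme A ahead of LPCAT3, was at 38.5, 31.0 and 32.0 FPKM in fluvastatin replicates 0, 1 and 2, against 42.8, 39.0 and 42.2 FPKM in the control replicates. The groups did not overlap, but fluvastatin replicate 0 lay just under the lowest control. Its log2 fold change was -0.29 ± 0.11 (SE; limma adjusted p = 0.101, 95% interval -0.55 to -0.022), which did not pass, and with relative depth as a covariate it was 0.025 (0.960). ACSL4 (ENSG00000068366.19, chromosome X, 109624244 to 109733403, minus strand) shares 78 exon bases, 1.22% of its own, with KCNE5 on the same strand, which averaged 0.536 FPKM in fluvastatin libraries and 0.616 FPKM in controls.

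Among genes that share a name or a family with the lipid-remodelling members, listed here as relatives, some rose. The list for LPCAT3 joins other genes named LPCAT with genes named MBOAT, so it is not 1 gene family. Of 6 tested relatives of LPCAT3, 2 rose and none fell, so 33.3% were called, against 27.7% of all tested genes. MBOAT2, an acyltransferase of the same family that places monounsaturated chains in phosphatidylethanolamine, was at 58.8, 56.9 and 65.6 FPKM in fluvastatin replicates 0, 1 and 2, against 23.5, 25.4 and 25.7 FPKM in the control replicates. That is 2.43-fold higher, with every treated library above every control (log2 fold change 1.25 ± 0.094, SE; limma adjusted p = 5.28e-04). LPCAT1, which remodels saturated phosphatidylcholine, rose 1.45-fold, to 40.7 ± 2.54 FPKM in fluvastatin libraries, against 28.1 ± 1.25 FPKM in controls (SD, n = 3 each; limma adjusted p = 0.00816). MBOAT1, LPCAT2, LPCAT4 and MBOAT7 did not pass, with log2 fold changes of -0.28, 0.12, -0.16 and -0.12. MBOAT1 passed in 3 alternatives, at adjusted p = 0.0299 to 0.0451. Of the relatives of ACSL4, ACSL1, ACSL3 and ACSL5 were tested and did not pass, at log2 fold changes of -0.08, -0.18 and -0.16.

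Among 11 tested genes of polyunsaturated phospholipid and ether lipid synthesis besides the members, 1 rose, 1 fell and 9 did not pass, with a median log2 fold change of -0.08. The share called was 18.2%, against 27.7% of all tested genes. FADS2, the desaturase that makes long polyunsaturated fatty acids, fell to 16.8 ± 0.299 FPKM in fluvastatin libraries, against 23.9 ± 1.33 FPKM in controls (SD, n = 3 each; limma adjusted p = 0.00787). TMEM189, the desaturase that forms the vinyl ether of plasmalogens, rose 1.5-fold (adjusted p = 0.00823). FADS1, AGPAT3 and PEBP1, a scaffold of lipoxygenases, did not pass, at log2 fold changes of -0.24, -0.15 and 0.024. SCD and ACSL3, which favour monounsaturated over polyunsaturated chains, did not pass either, at -0.21 and -0.18.

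TRIT1 (ENSG00000043514.15, chromosome 1, 39838110 to 39883511, minus strand) encodes the transferase that moves an isopentenyl group from a mevalonate product to tRNAs, beside the anticodon. It was at 14.9, 16.8 and 16.0 FPKM in fluvastatin replicates 0, 1 and 2, against 23.6, 20.2 and 25.1 FPKM in the control replicates. The groups did not overlap, and the closest values were those of fluvastatin replicate 1 and control replicate 1. TRIT1 averaged 15.9 ± 0.962 FPKM in fluvastatin libraries and 22.9 ± 2.53 FPKM in controls (SD, n = 3 each), 1.44-fold lower, with a log2 fold change of -0.50 ± 0.11 (SE; limma adjusted p = 0.0180). The call was lost without fluvastatin replicate 0 (0.0647) or 2 (0.0541) or control replicate 0 (0.0533), and with relative depth as a covariate (0.459), over a range of 0.00837 to 0.459.

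Genes that modify the anticodon region of tRNAs or supply isopentenyl groups gave 0 rises, 2 falls and 9 that did not pass among 11 tested, with a median log2 fold change of -0.25, and 10 of the 11 had a log2 fold change below 0. With 1 library left out, 0 or 1 of them fell, while 4 fell with the filter at a mean of 5 FPKM and 5 with limma's trend and robust options or among protein-coding genes alone. The share called in the reported fit was 18.2%, against 27.7% of all tested genes. Of all tested genes, 51.2% had a log2 fold change below that of NCOA4, which was 0.00037. CDK5RAP1, which acts on the base that TRIT1 has modified in mitochondrial tRNAs, was at 13.7, 10.6 and 13.5 FPKM in fluvastatin replicates 0, 1 and 2, against 20.1, 15.8 and 16.6 FPKM in the control replicates. Its groups did not overlap, but it did not pass (log2 fold change -0.44 ± 0.14, SE; limma adjusted p = 0.0546). CDK5RAP1 passed with the filter at a mean of 5 FPKM (0.0391), the trend and robust options (0.0358), the replicate block (0.0443) and protein-coding genes alone (0.0300). MTO1, a modifier of mitochondrial tRNAs, fell 1.52-fold (limma adjusted p = 0.0452). Its call was lost without fluvastatin replicate 0, 1 or 2 (0.120, 0.0605 and 0.129) or control replicate 1 or 2 (0.112 and 0.0988). The MTO1 call was also lost with a pseudocount of 0.1 (0.0588) and with no filter on low values (0.103). FDPS, which consumes the same isopentenyl units for longer isoprenoids, fell 1.23-fold (limma adjusted p = 0.0430), a call lost without any 1 library (0.0594 to 0.135), and 4 rows of the matrix are named as its pseudogenes, which may share its reads.

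GPX4 (ENSG00000167468.16, chromosome 19, 1103926 to 1106791, plus strand) was the member with the highest level in fluvastatin libraries. It was at 119.1, 126.7 and 117.1 FPKM in fluvastatin replicates 0, 1 and 2, against 104.5, 102.0 and 88.0 FPKM in the control replicates. Every treated library lay above every control, but the lowest control widened the spread. Its mean was 121.0 ± 5.08 FPKM in fluvastatin libraries and 98.2 ± 8.88 FPKM in controls (SD, n = 3 each), a ratio of 1.23, and the log2 fold change of 0.30 ± 0.099 (SE; 95% interval 0.065 to 0.54) did not pass at limma adjusted p = 0.0643. It passed in 4 of 15 alternatives, which were the filter at a mean of 5 FPKM (0.0440), quantile normalization (0.0416), limma's trend and robust options (0.0296) and the restriction to protein-coding genes (0.0451), over a range of 0.0296 to 0.763. With relative depth as a covariate its log2 fold change was 0.14 (0.763).

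No relative of GPX4 was called. GPX1, the soluble glutathione peroxidase, was at 172.1, 208.0 and 156.8 FPKM in fluvastatin replicates 0, 1 and 2, against 248.1, 231.6 and 203.3 FPKM in the control replicates. Fluvastatin replicate 1 overlapped control replicate 2, and the log2 fold change of -0.35 ± 0.14 (SE; limma adjusted p = 0.101) did not pass. The matrix holds 1 row named as a pseudogene of GPX1, which may share its reads. GPX8 and GPX3 were at log2 fold changes of -0.14 and 0.15, and neither passed.

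Of the 12 genes of the glutathione and cystine arm that feeds GPX4, 2 rose, none fell and 10 did not pass, with a median log2 fold change of -0.06, and 1 to 3 rose with a library left out. The share called with all libraries was 16.7%, against 27.7% of all tested genes. SLC7A11, the cystine importer, was at 46.0, 37.4 and 44.6 FPKM in fluvastatin replicates 0, 1 and 2, against 15.8, 23.6 and 34.7 FPKM in the control replicates. The controls were widely spread, and although no treated value overlapped them, the gene did not pass (log2 fold change 0.83 ± 0.26, SE; limma adjusted p = 0.0600). SLC7A11 passed without control replicate 2 (0.0162) and, with all 6 libraries, under the filter at a mean of 5 FPKM (0.0454), the trend and robust options (0.0491) and protein-coding genes alone (0.0283). The glutathione-making enzymes GCLC, GCLM and GSS did not pass, with log2 fold changes of -0.24, -0.07 and -0.04. TXNRD1, the cytosolic thioredoxin reductase and itself a selenoprotein, rose 1.62-fold, to 324.8 ± 16.1 FPKM in fluvastatin libraries, against 200.3 ± 8.05 FPKM in controls (SD, n = 3 each; limma adjusted p = 0.00258).

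Of 13 tested genes of the machinery that inserts selenocysteine, 2 rose, 3 fell and 8 did not pass, with a median log2 fold change of 0.030. With a library left out, 0 or 1 rose and 1 to 3 fell. The share called with all libraries was 38.5%, against 27.7% of all tested genes. The enzymes and factors that make selenocysteinyl-tRNA and deliver it to the ribosome (SEPSECS, SECISBP2, EEFSEC and SEPHS2) did not pass, at log2 fold changes of -0.0082, -0.00715, 0.10 and -0.0092. SCLY, the lyase that recycles selenium from selenocysteine, was at 13.0, 12.7 and 12.0 FPKM in fluvastatin replicates 0, 1 and 2, against 32.3, 22.3 and 29.5 FPKM in the control replicates. It fell 2.23-fold with no overlap (log2 fold change -1.08 ± 0.14, SE; limma adjusted p = 0.00330). ALKBH8, which methylates the wobble base of selenocysteine tRNA, fell 1.46-fold (adjusted p = 0.0143, or 0.0505 without fluvastatin replicate 2). SEPHS1 fell 1.45-fold (adjusted p = 0.0345) and TRNAU1AP, a protein bound to selenocysteine tRNA, rose 1.27-fold (adjusted p = 0.0303). Both calls were lost without fluvastatin replicate 0, 1 or 2 or control replicate 0 or 1, at adjusted p = 0.0623 to 0.0931 for SEPHS1 and 0.0627 to 0.0943 for TRNAU1AP. SECISBP2L rose 1.41-fold (adjusted p = 0.0443), a call lost without any 1 library (0.0743 to 0.118) except fluvastatin replicate 1. The SECISBP2L call was also lost with a pseudocount of 0.1 (0.0552) and with no filter on low values (0.0874). With no filter on low values the SEPHS1 call was lost too (0.0749). SEPHS1 also has 3 rows named as its pseudogenes, which may share its reads.

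Of 17 tested selenoproteins other than GPX4, 3 rose, 2 fell and 12 did not pass, with a median log2 fold change of -0.0092, and 3 rose and 0 or 1 fell with a library left out. The share called with all libraries was 29.4%, against 27.7% of all tested genes. Besides TXNRD1, the 2 that rose are proteins of the endoplasmic reticulum. SELENOM was at 13.0, 19.3 and 15.4 FPKM in fluvastatin replicates 0, 1 and 2, against 7.49, 7.72 and 7.97 FPKM in the control replicates. It rose 2.05-fold (limma adjusted p = 0.0056) with wide spread among the treated libraries and little among the controls. SELENOS, a part of the retrotranslocation complex, rose 1.71-fold, to 45.0 ± 2.04 FPKM in fluvastatin libraries, against 26.3 ± 2.04 FPKM in controls (SD, n = 3 each; limma adjusted p = 0.00262). TXNRD2, the mitochondrial thioredoxin reductase, fell 1.46-fold (adjusted p = 0.0262). Its call was lost without fluvastatin replicate 0 (0.0623) or 2 (0.0579) or control replicate 0 (0.0668) or 1 (0.0811). With no filter on low values the TXNRD2 call was lost too (0.0554). TXNRD3, another thioredoxin reductase, fell 1.27-fold (adjusted p = 0.0460), a call lost without any 1 library (0.0618 to 0.134). The TXNRD3 call was also lost with trimmed-mean scaling (0.0516) and with limma's trend and robust options (0.0754).

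**Figure D2:**
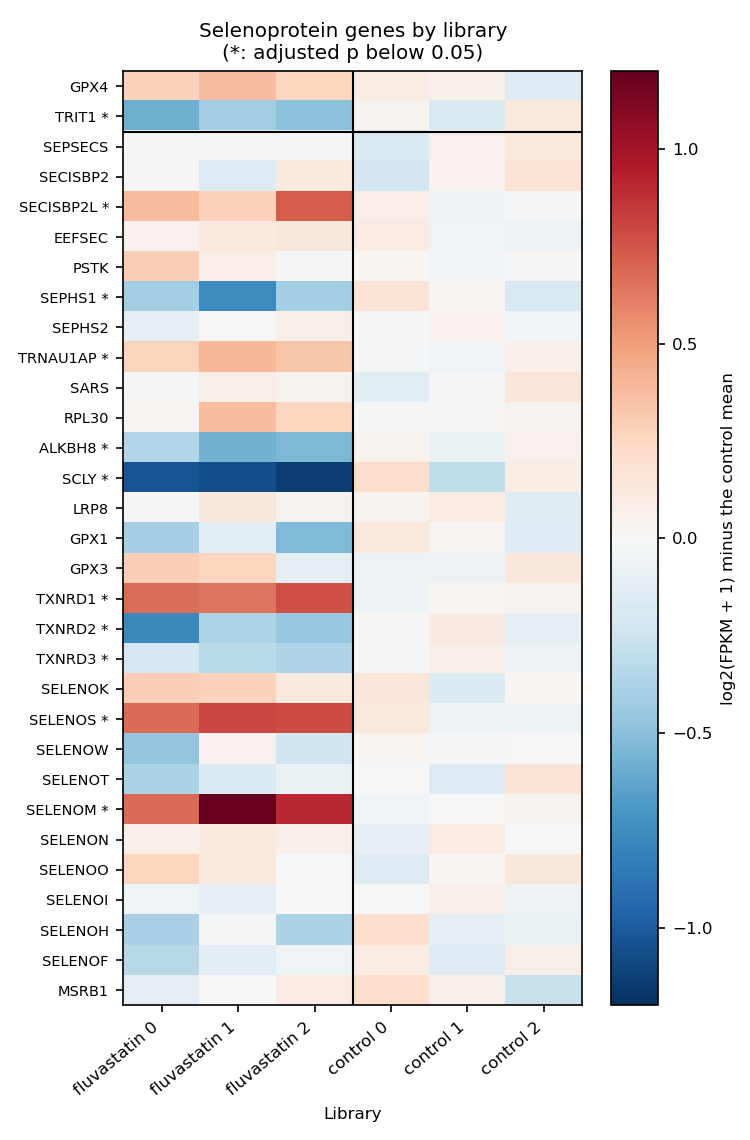
Heatmap of 31 genes (rows: GPX4 and TRIT1, then the selenocysteine machinery and the other selenoproteins) in 6 libraries (columns, fluvastatin at left), coloured by log2(FPKM + 1) minus the mean of the 3 controls, with an asterisk where the adjusted p is below 0.05. SCLY is the darkest blue in all 3 fluvastatin libraries, TXNRD1, SELENOS and SELENOM are red in them, and SEPSECS, SECISBP2, EEFSEC and SEPHS2 stay pale.

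AIFM2 (ENSG00000042286.14, chromosome 10, 70098223 to 70132934, minus strand) had the lowest level of the 7 and hardly differed between groups. It was at 6.56, 7.33 and 6.37 FPKM in fluvastatin replicates 0, 1 and 2, against 7.58, 6.69 and 6.04 FPKM in the control replicates. The groups overlapped throughout, and the means were 6.75 ± 0.507 FPKM in fluvastatin libraries and 6.77 ± 0.776 FPKM in controls (SD, n = 3 each). The log2 fold change was -0.00092 ± 0.11 (SE; limma adjusted p = 0.997), with a 95% interval of -0.26 to 0.25, so the data allow any change inside that interval. AIFM1, its relative in the mitochondria, did not pass at -0.16, and NMT1 and NMT2, which attach the myristate that holds AIFM2 on membranes, did not pass at -0.014 and -0.0016.

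The other defences that work without GPX4 were mixed, since 3 of 18 genes rose, 4 fell and 11 did not pass, at a median log2 fold change of -0.18. With a library left out, 1 or 2 rose and 2 to 4 fell. The share called with all libraries was 38.9%, against 27.7% of all tested genes. Besides MBOAT2, NQO1, a quinone reductase, rose 1.31-fold (limma adjusted p = 0.0339), a call lost without any 1 library (0.0551 to 0.0871). TXN, the thioredoxin that TXNRD1 reduces, rose 1.32-fold (adjusted p = 0.0277), a call lost without fluvastatin replicate 1 (0.0838) or 2 (0.0873) or control replicate 0 (0.0634) or 1 (0.0872). The matrix holds 4 rows named as pseudogenes of TXN, which may share its reads. DHODH, which reduces coenzyme Q in the inner mitochondrial membrane, was at 8.62, 6.95 and 6.84 FPKM in fluvastatin replicates 0, 1 and 2, against 11.1, 10.8 and 12.8 FPKM in the control replicates. It fell 1.55-fold (log2 fold change -0.57 ± 0.12, SE; limma adjusted p = 0.0147), a call lost without fluvastatin replicate 1 (0.0508) or 2 (0.0515). STARD7, a lipid transfer protein needed for coenzyme Q export from mitochondria, fell to 39.5 ± 1.07 FPKM in fluvastatin libraries, against 59.7 ± 4.19 FPKM in controls (SD, n = 3 each; adjusted p = 0.00541). SPR, the last enzyme of tetrahydrobiopterin synthesis, fell 1.59-fold (adjusted p = 0.0104). GCH1, the first enzyme of that route, was low in both groups and did not pass (log2 fold change -0.45, adjusted p = 0.135).

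TFRC (ENSG00000072274.12, chromosome 3, 196027183 to 196082189, minus strand), the receptor that takes up iron-loaded transferrin, was at 106.9, 115.1 and 116.6 FPKM in fluvastatin replicates 0, 1 and 2, against 125.7, 101.4 and 99.8 FPKM in the control replicates. The groups overlapped because control replicate 0 was the highest of all 6 libraries and the other 2 controls were the lowest. The means were 112.9 ± 5.22 FPKM in fluvastatin libraries and 108.9 ± 14.5 FPKM in controls (SD, n = 3 each), and the log2 fold change was 0.058 ± 0.12 (SE; limma adjusted p = 0.746, 95% interval -0.22 to 0.33). Without control replicate 0 it was 0.16 and still did not pass (0.290).

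NCOA4 (ENSG00000266412.5, chromosome 10, 46005088 to 46030714, minus strand), the ferritin receptor of autophagy, was at 37.2, 39.8 and 40.9 FPKM in fluvastatin replicates 0, 1 and 2, against 40.3, 37.0 and 40.4 FPKM in the control replicates. Both groups covered the same range, with means of 39.3 ± 1.90 FPKM in fluvastatin libraries and 39.3 ± 1.94 FPKM in controls (SD, n = 3 each). The log2 fold change was 0.00037 ± 0.087 (SE; limma adjusted p = 0.998), and the 95% interval was -0.21 to 0.21. NCOA4 is named with the nuclear receptor coactivators, of which NCOA1 rose 1.34-fold (adjusted p = 0.0311). The NCOA1 call was lost without any 1 fluvastatin library or without control replicate 0 or 1, at 0.0619 to 0.102. It was also lost with limma's trend and robust options (0.0591). NCOA2, NCOA3, NCOA5, NCOA6 and NCOA7 did not pass, at log2 fold changes of 0.06, 0.67, -0.23, 0.11 and -0.01. NCOA3 passed in 4 alternatives, at adjusted p = 0.0279 to 0.0454.

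Around TFRC and NCOA4, 2 of 17 tested iron genes rose, 2 fell and 13 did not pass, with a median log2 fold change of -0.05, and 1 or 2 rose and 2 fell with a library left out. The share called with all libraries was 23.5%, against 27.7% of all tested genes. FTH1, the ferritin heavy chain that oxidises iron for storage and the cargo that NCOA4 binds, was at 563.4, 599.9 and 537.1 FPKM in fluvastatin replicates 0, 1 and 2, against 355.3, 336.1 and 311.8 FPKM in the control replicates. It rose 1.69-fold with a wide gap between groups (log2 fold change 0.76 ± 0.093, SE; limma adjusted p = 0.00255), and 17 rows of the matrix are named as its pseudogenes, which may share its reads. FTL, the ferritin light chain, did not pass at 0.11 (adjusted p = 0.361), and 4 rows are named as its pseudogenes. ACO1, the cytosolic aconitase that turns into an iron regulatory protein when iron is low, was at 20.5, 22.2 and 21.5 FPKM in fluvastatin replicates 0, 1 and 2, against 36.7, 34.1 and 35.2 FPKM in the control replicates. It fell 1.65-fold, with both groups tightly spread (log2 fold change -0.70 ± 0.082, SE; adjusted p = 0.00227). IREB2, the other iron regulatory protein, and FBXL5, which marks it for degradation, did not pass at -0.25 and -0.14.

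HMOX1, which frees iron from haem, rose 1.88-fold (limma adjusted p = 0.0179, or 0.0501 without fluvastatin replicate 0), and CISD1, an iron-sulphur protein of the outer mitochondrial membrane, fell 1.49-fold (0.00739). STEAP3 and SLC11A2, which handle iron released from transferrin, did not pass at log2 fold changes of 0.10 and 0.0046. SLC40A1, the iron exporter, averaged 0.324 FPKM in fluvastatin libraries and 0.616 FPKM in controls and was not tested. It was at 0.106, 0.417 and 0.450 FPKM in fluvastatin replicates 0, 1 and 2, against 0.0219, 0.0356 and 1.79 FPKM in the control replicates. The control mean thus rests on control replicate 2, and the other controls lay below every fluvastatin library.

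**Figure D3:**
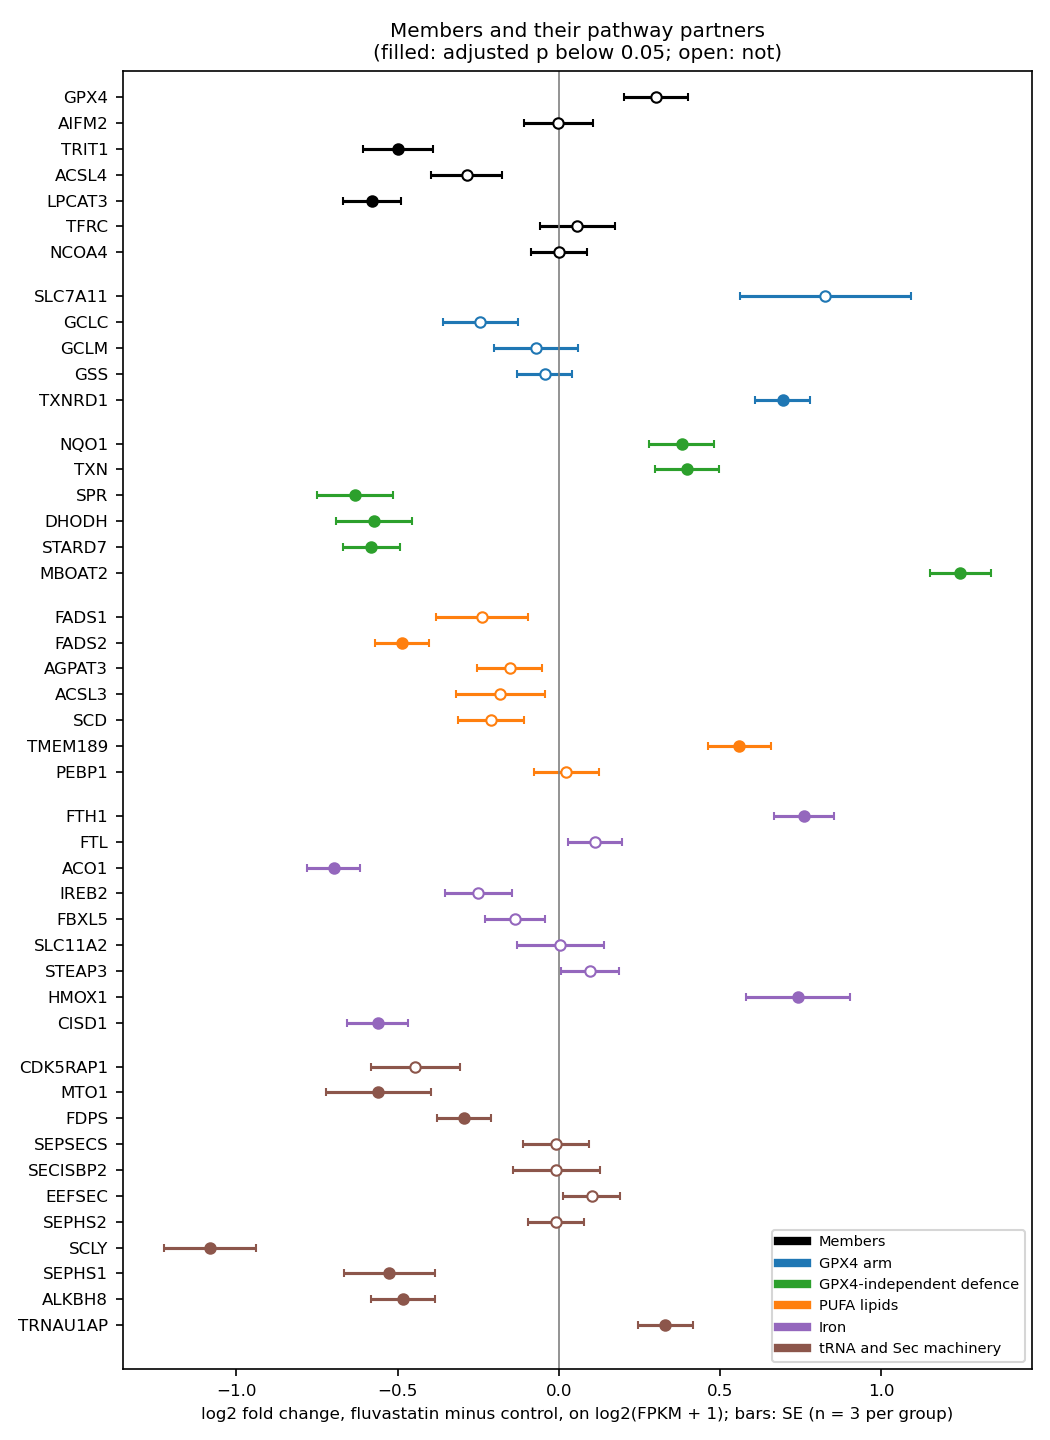
Log2 fold changes on log2(FPKM + 1), fluvastatin minus control, of the 7 members and 38 partner genes grouped by role, with bars of 1 SE (n = 3 per group), filled circles for adjusted p below 0.05 and open circles otherwise. LPCAT3 and TRIT1 are the filled circles among the members, both left of 0, while FTH1 lies right and ACO1 left of 0 in the iron group.

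By level, the members fell into the same tiers in both groups. In fluvastatin libraries the order of mean FPKM was GPX4, TFRC, NCOA4, ACSL4, TRIT1, LPCAT3 and AIFM2, and in controls TFRC, GPX4, ACSL4, NCOA4, TRIT1, LPCAT3 and AIFM2. The ranges of GPX4 and TFRC overlapped in controls but not in fluvastatin libraries, where GPX4 was higher. Those of NCOA4 and ACSL4 and of TRIT1 and LPCAT3 overlapped in both groups, and AIFM2 lay below all others in every library. In mean level GPX4 lay above 93.0% of tested genes, TFRC above 93.1% and AIFM2 above 34.5%.

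The genes closest in pattern to each member were sought among 9544 protein-coding genes averaging 5 FPKM or more, by the root mean square difference between library deviations of log2(FPKM + 1) from the gene's mean over the 6 libraries. DNAJC5 and MFSD11 were closest to GPX4 at 0.023 and 0.024, where the median candidate was at 0.25. BCAR3 and HIF1A were closest to ACSL4 (0.035 and 0.044), CNRIP1 and PHGDH to LPCAT3 (both 0.037), RNF34 and INSIG1 to TFRC (0.031 and 0.035), and HIST1H2AB and CDK1 to TRIT1 (0.037 and 0.050). For AIFM2 the closest was MAP3K11 (0.019), and for NCOA4 they were COMMD1 and UBTD2 (0.021 and 0.026). With so many candidates and 6 libraries, such close matches are a description of these libraries.

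**Figure D4:**
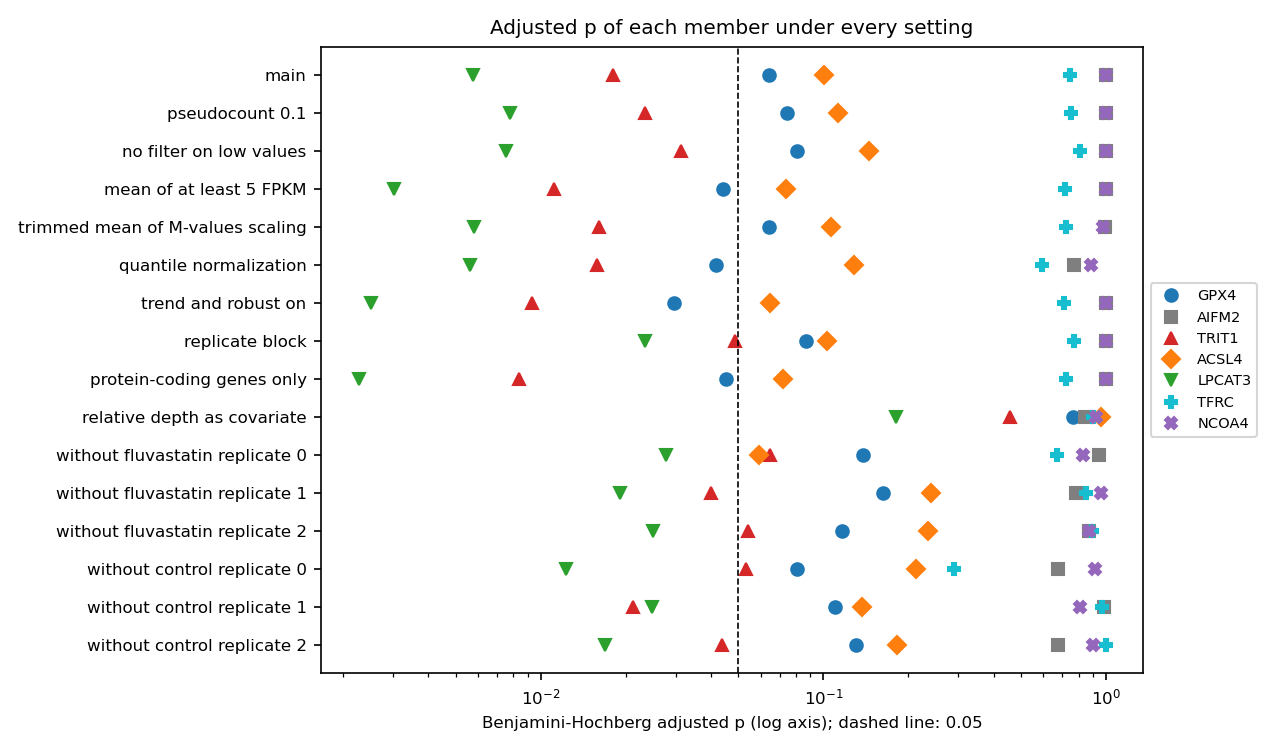
Benjamini-Hochberg adjusted p of each member (log axis, dashed line at 0.05) under the reported fit (top row, named main) and the 15 alternatives. LPCAT3 lies left of the line in every row but that of relative depth as a covariate, TRIT1 lies right of it in 4 rows, GPX4 lies left of it in 4, and the other 4 members stay to its right.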

How the data were processed

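RNA-seq values of 3 fluvastatin and 3 control libraries were used. The authors' tools, per the submitters' processing notes, were STAR, Cufflinks and Cuffdiff, with the build hg38. The deposited matrix names no unit, and its values were taken as FPKM, since they are not whole and sum to 686133.2 to 729564.0 per library. Versions, annotation, strand setting and any rescaling between libraries are not given in the sources used here. Depth is therefore known only in relative terms, from the modal ratio between libraries of genes at 0 in at least 1 library, and no counting intervals can be given. No library was a copy of another (at most 2 identical values above 0 in any pair).

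Of 29790 identifiers, 29542 matched GENCODE release 29 (GRCh38), and older selenoprotein symbols were matched by identifier. The model, limma 3.58.1 under R 4.3.3, was fitted to log2(FPKM + 1) of genes that reached 1 FPKM in 3 or more libraries, two-sided, with Benjamini-Hochberg adjustment over all tested genes, after a check on simulated data. Group means, SDs and fold values are of FPKM. The pseudocount of 1 understates fold changes of low genes. Lists are described by counts and medians, with no test of the list. Text names all members, from each list the 4 called genes of lowest adjusted p, fixed partner genes, and the tested relatives (by name or by family). TXN, SECISBP2L, TXNRD3, EMG1, CHAC1, POR, CYB5R1, the lipoxygenases and the marker genes are named in addition, after their values were seen. A few genes that meet the rule, or that the list counts include, are not reported here by name. The members and lists were chosen with earlier results of these data known. The 15 alternatives changed the pseudocount, filter, scaling, variance model, block, gene set, depth term or libraries.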

Additional observations from a re-analysis of the deposited data

How the results depend on the processing

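Over all genes, 3971 were called, and 61 were with relative depth as a covariate (49 rose, 12 fell). With 1 library left out, 2340 to 3416 were called, of which 1274 to 1785 rose and 1066 to 1631 fell, the fewest without fluvastatin replicate 0 (2340 called) and 2 (2641 called). Falls were 1066, 1275 and 1284 without fluvastatin replicate 0, 1 and 2 and 1245 without control replicate 1, against 1954 with all libraries. Of the members, 1 or 2 were called with a library left out, 0 with the depth covariate and 2 or 3 in the other settings. GPX4 passed with a mean of at least 5 FPKM (log2 fold change 0.30, adjusted p = 0.0440), quantile normalization (0.33, 0.0416), trend and robust on (0.30, 0.0296) and protein-coding genes only (0.30, 0.0451), and with a library left out its log2 fold change was 0.23 to 0.35. With the depth covariate GPX4 was at 0.14 (0.763), LPCAT3 at -0.64 and TRIT1 at -0.35, none past the threshold, and ACSL4 at 0.025, on the other side of 0. TRIT1 was at -0.58 to -0.43 and LPCAT3 at -0.63 to -0.54 with a library left out. Values near 0 changed sign, AIFM2 with trimmed-mean scaling (0.0027) and with libraries left out (-0.070 to 0.073), TFRC (-0.00077 to 0.16) and NCOA4 (-0.040 to 0.039) with libraries left out. The cause of these changes was not tested.

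Of 63 partner genes and relatives named, 26 were called, and all 26 lost the call with the depth covariate, for which the cause was not tested, while 16 to 23 kept it with a library left out. Under that covariate MBOAT2 was at 1.24 and TXNRD1 at 0.69, near their reported values, while DHODH was at -0.25, ALKBH8 at -0.21, HMOX1 at 0.34 and NQO1 at 0.19. None of the genes that changed sign was called. With the depth covariate ACSL1 was at 0.36, GCH1 at 0.069, GPX8 at 0.20, PEBP1 at -0.19 and SECISBP2 at 0.070. With quantile normalization NMT1 was at 0.015, NMT2 at 0.029 and SEPHS2 at 0.014, and with trimmed-mean scaling NMT2 was at 0.0024. With a library left out, the ranges that crossed 0 were SLC11A2 -0.090 to 0.10, GCLM -0.15 to 0.061, SEPSECS -0.096 to 0.056, SECISBP2 -0.12 to 0.081, SEPHS2 -0.050 to 0.035, NMT1 -0.078 to 0.027, NMT2 -0.032 to 0.032, PEBP1 -0.035 to 0.071, GPX8 -0.27 to 0.036, ACSL1 -0.23 to 0.091, NCOA2 -0.050 to 0.17 and NCOA7 -0.028 to 0.0021.

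The labels do not say whether equal replicate numbers pair the libraries. The correlations of their deviations from the group means across genes were -0.0015, 0.085 and 0.084 for numbers 0, 1 and 2. The libraries numbered 1 and 2 correlated best with their own number, and those numbered 0 did not. Such weak correlations over 3 libraries per group cannot settle whether the libraries were paired. With the replicate block, 3154 genes (1658 rose, 1496 fell) and 2 members were called, LPCAT3 at adjusted p = 0.0235 and TRIT1 at 0.0489, and 20 of the 26 named genes kept the call. NQO1 (0.0659), NOX4 (0.0637), TRNAU1AP (0.0688), SEPHS1 (0.0576), FDPS (0.0929) and NCOA1 (0.0747) lost it. TXN (0.0604), SECISBP2L (0.0674) and TXNRD3 (0.0827), which are not among the 26, lost it too. The 3 libraries per group limit what the test can detect for differences as small as that of ACSL4.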

Other observations

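Of 12 genes listed as lipid peroxidation enzymes, 10 had a row and 4 were tested. The lipoxygenase family genes ALOX5, ALOX12B, ALOX15, ALOX15B and ALOXE3 averaged below 1 FPKM in both groups and were not tested in the reported fit. ALOXE3 was at 0.416, 0.703 and 0.591 FPKM in fluvastatin replicates 0, 1 and 2. In the control replicates it was at 0.116, 0.159 and 0.274 FPKM, so its groups did not overlap. With no filter on low values, 2 genes of this list rose, where the reported fit had 1. POR, the cytochrome P450 reductase that can drive peroxidation through electron transfer, averaged 26.6 FPKM in fluvastatin libraries and in controls, and CYB5R1, a reductase with a like role, averaged 9.37 ± 1.23 FPKM in fluvastatin libraries and 9.61 ± 1.77 FPKM in controls (SD, n = 3 each). Neither passed.

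PTGS2, the inducible cyclooxygenase that is often read as a transcript marker of ferroptosis, was at 7.30, 8.25 and 5.94 FPKM in fluvastatin replicates 0, 1 and 2, against 3.14, 2.98 and 3.30 FPKM in the control replicates. It rose 2.28-fold with no overlap (limma adjusted p = 0.00280). NOX4, an NADPH oxidase that makes hydrogen peroxide, fell to 1.57 ± 0.430 FPKM in fluvastatin libraries, against 3.41 ± 0.794 FPKM in controls (SD, n = 3 each; limma adjusted p = 0.0199), a call lost without fluvastatin replicate 2 (0.0519), with no filter on low values (0.0536) and with the replicate block (0.0637). CHAC1, which degrades glutathione and is also read as a ferroptosis marker, averaged 20.6 ± 1.86 FPKM in fluvastatin libraries and 21.1 ± 13.0 FPKM in controls (SD, n = 3 each) and did not pass.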
